A study of Rattus norvegicus with 10 samples.

Results

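The ZFP, ZBTB, ZBED and ZIC genes encode zinc-finger proteins, most of them DNA-binding transcription factors, and their messenger RNA was followed in cultured rat hippocampal neurons after chemical long-term potentiation (cLTP), a treatment that strengthens synapses across a whole dish. The members were found by symbol: every row of the deposited table that begins with Zfp, Zbtb, Zbed or Zic followed by a digit, without the messenger RNA decay genes Zfp36 and Zfp36l1. This gave 210 of the 11615 rows, namely 168 Zfp, 34 Zbtb, 3 Zbed and 5 Zic genes. The family itself was selected on measured values, since Zic5, Zfp112, Zfp111 and Zfp641 stood among the genes most reduced at 60 min against mock in earlier results of these same libraries. Calls at 60 min against mock are therefore used as a description, to sort members by size of difference and spread, with no p printed and nothing rested on them, and so are those of 120 min against 60 min and of 60 min against the pooled 5 and 10 min libraries, which share the 60 min libraries.

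The cultures came from the hippocampus of Wistar rats and were at day 15 in vitro. Each of the 5 groups had 2 biological repeats, a mock group that got the mock-cLTP solution and groups taken 5, 10, 60 and 120 min after cLTP solution. Every culture, mock included, had been given fluorodeoxyuridine with uridine on day 4 against glial growth. The labels used here state neither the make-up of the cLTP solution nor the harvest time of the mock cultures.

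Most Zfp genes carry arrays of C2H2 fingers, in which a pair of cysteines and a pair of histidines hold a zinc ion. Many of them add a KRAB box, which calls in the corepressor Trim28 and the methyltransferase Setdb1 to silence chromatin, and in rodents and other mammals such genes lie in tandem clusters that arose by duplication. Zbtb proteins join fingers to a BTB domain that pairs the protein with itself and with corepressors, Zbed proteins carry a finger derived from transposases, and Zic proteins, relatives of the GLI factors of Hedgehog signalling, are known for patterning the dorsal neural tube and the cerebellum.

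Levels are CPM, read counts scaled to the size of the library, divided by a trimmed-mean (TMM) scaling factor per library, and differences are on the log2(CPM + 1) scale, which understates changes of low genes. A gene was called higher or lower at a Benjamini-Hochberg adjusted p under 0.05 in limma, a linear model fitted over all 11615 rows and all 10 libraries. The libraries held 32961534 to 54040657 reads. Markers of excitatory neurons summed to 2109.5 to 2257 CPM in mock and those of astrocytes to 17244 to 17321 CPM, so the cultures hold astrocyte RNA as well as neuronal RNA. In such bulk samples, fewer cells of a type and less RNA per cell cannot be told apart. The 5 min pair differed most: the SD over members of replicate 2 minus replicate 1 was 0.173 there and 0.103 to 0.123 in the other 4 pairs.

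As a family the zinc-finger genes were lowest at 60 min and split into higher and lower genes at 120 min. The median member lay -0.01 and -0.10 from the mock mean in the 5 min libraries, 0.01 and -0.05 in the 10 min libraries, -0.16 and -0.13 in the 60 min libraries and -0.02 and 0.00 in the 120 min libraries, while the median of all rows lay within 0.01 of mock in every library. Both 60 min libraries were below both mock libraries in 130 members and above both in 30, which is 61.9% and 14.3% of the members against 25.8% and 21.9% of all rows. At 120 min 84 members lay below and 77 above both mock libraries, 40% and 36.7% of the members, close to 37.5% and 36.1% of all rows.

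**Figure D1:**
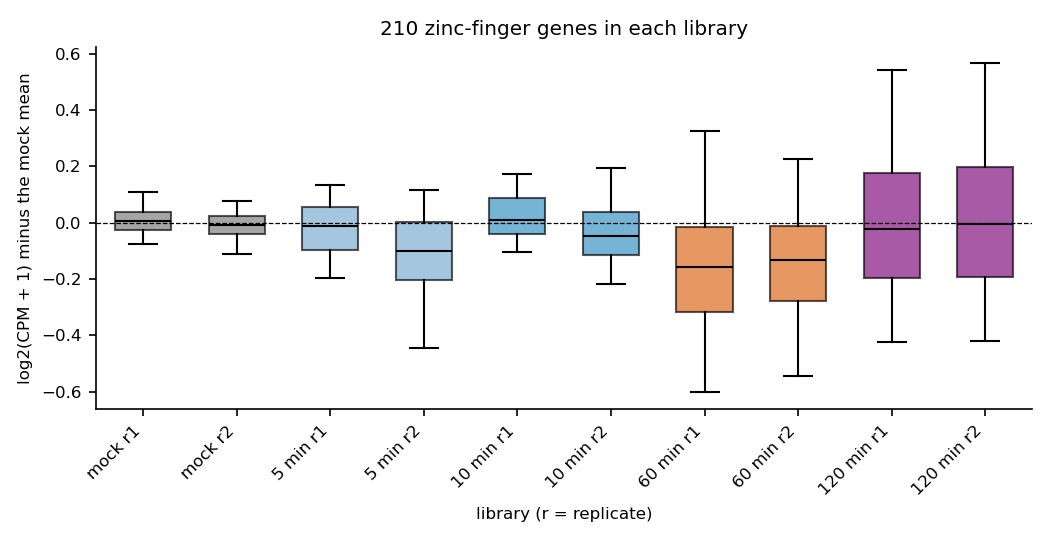
Log2(CPM + 1) minus the mock mean for the 210 zinc-finger genes in each of the 10 libraries; boxes show the quartiles, the line in each box the median, and whiskers the 5th and 95th percentiles. The 60 min boxes sit lowest, with medians of -0.16 and -0.13, and the 120 min boxes are the widest and centred near 0.

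At 5 and 10 min against mock, which asks what moved within minutes, no member passed the test. At 5 min 0 members were called in either direction (percent called over all rows 0%, smallest adjusted p of a member 0.19 in limma). An unadjusted p under 0.05 was found for 36 members, 17.1%, near the 16% of all rows. Differences leaned downward, with 149 members, 71%, below 0 against 49.5% of all rows. Both 5 min libraries were below both mock libraries in 35.7% of the members and above both in 10.5%, against 23.3% and 24.1% of all rows. Replicate 2 had 156 members below the mock mean and replicate 1 had 113. Zfp512b was at 99.6 and 84.4 CPM in mock, 74.2 and 60.9 at 5 min, 93.7 and 84.1 at 10 min, 85.1 and 81 at 60 min, and 80.7 and 87.9 at 120 min. Its second 5 min library was the lowest of all 10 and both 5 min libraries lay below both mock libraries (log2 difference -0.44, SE 0.10, adjusted p = 0.19). Zfp142 (-0.51), Zfp513 (-0.39) and Zbtb43 (-0.21) followed, each at the same adjusted p. The 5 min result depended on the library: with only replicate 2 for that time, 19 members were called lower, Zfp512b, Zfp142 and Zfp513 among them, which is 9.05% of the members beside 5.01% of all rows, and with only replicate 1 none was.

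At 10 min 0 members were called, against 0.0344% of all rows, and 13 had an unadjusted p under 0.05, 6.19% beside 9.88% of all rows. The smallest adjusted p belonged to Zbed5, which encodes a transposase-derived protein (log2 difference 0.32, SE 0.08, adjusted p = 0.25). Zbed5 was at 40.8 and 43.4 CPM in mock, 51.7 and 49.2 at 5 min, 50.2 and 55.3 at 10 min, 58.3 and 49 at 60 min, and 57.1 and 58.7 at 120 min. All libraries from 5 min on lay above both mock libraries. Zfp219 (0.22), Zfp579 (0.32) and Zfp148 (-0.12) came next, with adjusted p from 0.37 to 0.43.

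The comparison of 60 min with mock showed a broad dip with a few genes above it. Of the 210 members 49 were called lower and 12 higher, or 23.3% and 5.71%, where 1.95% of all rows were called lower and 4.64% higher. The median difference was -0.13 (all rows -0.01), and 159 members, 75.7%, lay below 0 against 52.9% of all rows. The members nearest the threshold on its inner side were Zfp68 (74.7 against 63.3 CPM, mock against 60 min), Zbtb9 (14.6 against 11.9 CPM) and Zfp167 (12.4 against 9.54 CPM), whose call was lost with any of 7 libraries left out. Just outside it stood Zfp777 (33.3 against 28 CPM), Zfp57 (14.6 against 11.2 CPM) and Zfp282 (35.7 against 29.8 CPM). The count of lower members was 31 without mock replicate 1 or without 60 min replicate 1. The count of higher members was 4 without mock replicate 1, 5 without 60 min replicate 1, and 7 without mock replicate 2 or either 120 min library.

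The largest dip was that of Zic5, a member of the family best known from neural tube and neural crest development. Zic5 was at 12.5 and 12.8 CPM in mock, 13.3 and 10.2 at 5 min, 11.4 and 11.7 at 10 min, 6.79 and 6.22 at 60 min, and 17.6 and 15.9 at 120 min. Both 60 min libraries were the lowest and both 120 min libraries the highest of the 10, with no overlap with mock on either side. Its neighbour Zic2, whose loss in humans and mice disturbs forebrain formation, was at 44 and 44 CPM in mock, 45 and 36.1 at 5 min, 40.4 and 41.7 at 10 min, 29.3 and 29.4 at 60 min, and 59.9 and 51.4 at 120 min. Both 60 min libraries were again the lowest and both 120 min libraries the highest, without overlap with mock.

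Zic2 and Zic5 lie head to head on chromosome 15 of the rn6 build, Zic5 at chr15:108891992-108898703 on the minus strand and Zic2 at chr15:108908366-108913812 on the plus strand, with 9.7 kb between their starts. The other such pair, on chromosome 8 with 16.9 kb between starts, had no call at 60 or 120 min against mock. Zic1, a determinant of cerebellar granule cells, was at 27.1 and 28.7 CPM in mock, 28.8 and 22 at 5 min, 29.2 and 27.9 at 10 min, 29.1 and 26.8 at 60 min, and 30.2 and 27.1 at 120 min. Zic4, whose loss together with ZIC1 has been tied to a cerebellar malformation in humans, was at 4.89 and 4.53 CPM in mock, 5.32 and 3.26 at 5 min, 5.1 and 4.03 at 10 min, 3.98 and 4.53 at 60 min, and 5.19 and 4.64 at 120 min. In both genes the second 5 min library was the lowest and the 60 and 120 min libraries straddled mock or lay within 1 CPM of it. Zic1 and Zic4 were not called in any of the comparisons with mock (at 120 min adjusted p = 0.81 and 0.83 in limma). Per kb of the width that the deposited table gives, Zic1 was at 20.7 CPM in mock, then Zic2 at 15.6, Zic5 at 6.2 and Zic4 at 2.37. For Zic5 this width is shorter than the span above.

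**Figure D2:**
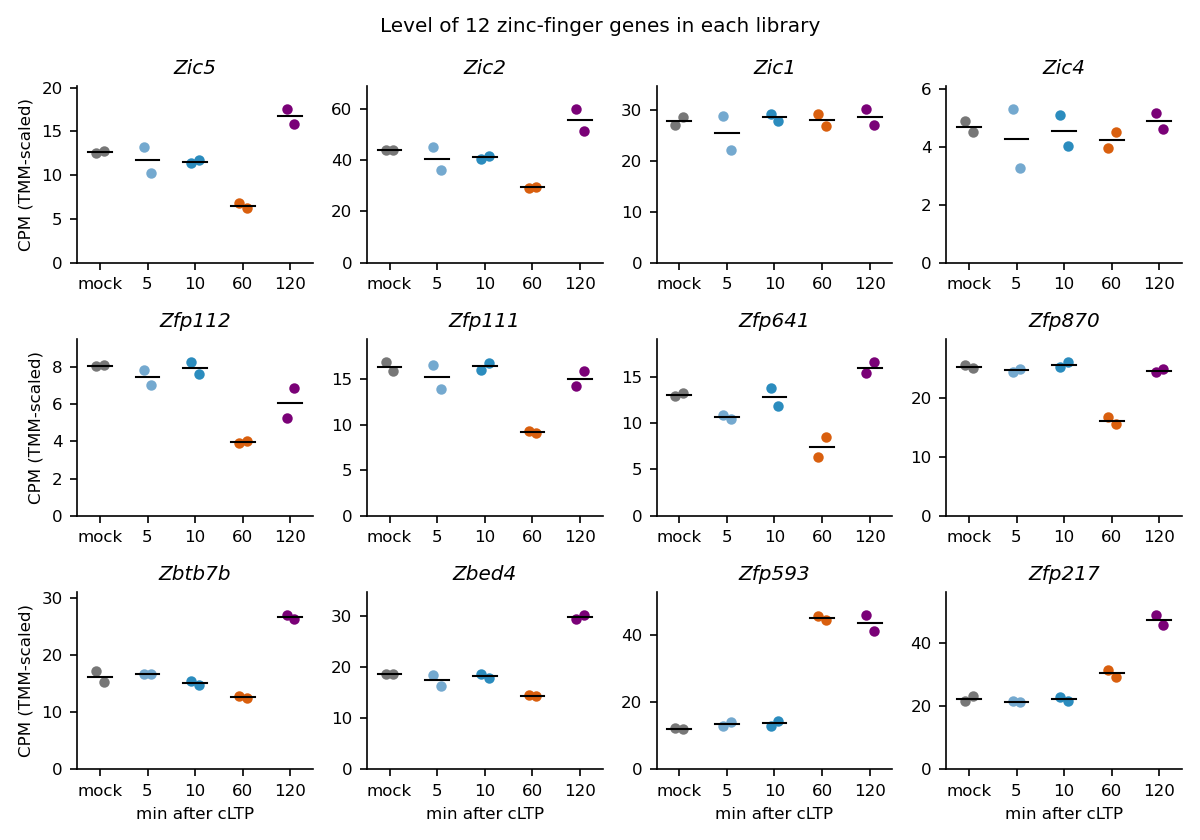
TMM-scaled CPM of 12 zinc-finger genes in mock and at 5, 10, 60 and 120 min after cLTP; points are the 2 libraries of a group and bars their mean, and each panel has its own axis from 0. Zic5, Zic2, Zbtb7b and Zbed4 are lowest at 60 min and highest at 120 min, Zfp112, Zfp111 and Zfp870 are lowest at 60 min, and Zfp593 and Zfp217 are high at both late times.

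Among the Zfp genes the lowest at 60 min against mock were Zfp112 and its neighbour Zfp111. Zfp112 was at 8.06 and 8.08 CPM in mock, 7.86 and 7.02 at 5 min, 8.25 and 7.62 at 10 min, 3.93 and 4.04 at 60 min, and 5.27 and 6.86 at 120 min. Its 60 min libraries were the lowest and its 120 min libraries stayed below mock, without overlap. Zfp111 was at 16.8 and 15.9 CPM in mock, 16.5 and 13.9 at 5 min, 16 and 16.7 at 10 min, 9.35 and 9.11 at 60 min, and 14.2 and 15.8 at 120 min. Here only the 60 min libraries stood far apart, and the 120 min and second 5 min libraries lay a little below mock. Zfp641 was at 12.9 and 13.2 CPM in mock, 10.9 and 10.5 at 5 min, 13.7 and 11.8 at 10 min, 6.39 and 8.51 at 60 min, and 15.4 and 16.6 at 120 min, low at 60 min and above mock at 120 min, and both of its 5 min libraries were also under mock.

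Zfp949 (log2 difference -0.64), Zfp870 (-0.62), Zfp799 (-0.61) and Zfp161 (-0.60), which RefSeq lists as Zbtb14, completed the 8 with the largest differences downward. Zfp870 was at 25.5 and 25.1 CPM in mock, 24.4 and 25 at 5 min, 25.2 and 26.1 at 10 min, 16.7 and 15.5 at 60 min, and 24.4 and 24.9 at 120 min. It was flat but for the 60 min libraries. Of the Zbtb genes 7 were called lower, led by Zbtb5 (-0.53) and Zbtb26 (-0.50), then Zbtb48 (-0.37), a telomere-binding protein in human cells, and Zbtb39 (-0.33). The call was lost for Zbtb26 without mock replicate 2 or 60 min replicate 1 (-0.50 to -0.46), for Zbtb48 without mock replicate 1, 60 min replicate 1 or 60 min replicate 2 (-0.42 to -0.28), and for Zbtb39 without mock replicate 1, mock replicate 2, 60 min replicate 1 or 60 min replicate 2 (-0.36 to -0.30).

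Against this, 12 members were called higher at 60 min. Zfp593, whose human homologue is a small nucleolar protein with a role in ribosome assembly, was at 12.2 and 11.9 CPM in mock, 12.8 and 14.1 at 5 min, 13 and 14.3 at 10 min, 45.8 and 44.7 at 60 min, and 46 and 41.3 at 120 min. The 60 and 120 min libraries lay far above all others, and both 5 min and both 10 min libraries were also above mock. Zfp503, a repressor known from striatal development in mice, was at 2.82 and 3 CPM in mock, 3.58 and 3.22 at 5 min, 3.51 and 3.72 at 10 min, 5.61 and 5.13 at 60 min, and 4.26 and 3.75 at 120 min. It was highest at 60 min, and all later libraries lay above both mock libraries. Zfp217, an oncogene product in human breast tumours that works with corepressors, was at 21.5 and 23 CPM in mock, 21.6 and 21.2 at 5 min, 22.9 and 21.4 at 10 min, 31.5 and 29.3 at 60 min, and 48.7 and 45.6 at 120 min, a stepwise order with 60 min above and 120 min farther above mock.

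The other members with the largest differences upward at 60 min were Zfp281 (0.37), a regulator of pluripotency in mouse stem cells, Zbed5 (0.34), Zfp787 (0.33), Zfp444 (0.30) and Zbtb2 (0.30). Several of these calls were lost when a single library was left out, whichever of several it was. The call was lost for Zbed5 without mock replicate 1 or 60 min replicate 1 (0.22 to 0.30) and for Zbtb2 without mock replicate 1, 60 min replicate 1 or 60 min replicate 2 (0.26 to 0.30). It was lost for Zfp787 without mock replicate 1, mock replicate 2, 60 min replicate 1, 120 min replicate 1 or 120 min replicate 2 (0.28 to 0.37) and for Zfp444 without mock replicate 1, mock replicate 2, 10 min replicate 1, 10 min replicate 2, 60 min replicate 1, 120 min replicate 1 or 120 min replicate 2 (0.22 to 0.33). Under scaling by library totals alone both of these lost it as well (0.30 and 0.27).

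Against the pooled 5 and 10 min libraries, which replaces mock by cultures that had also received cLTP solution, 51 members were called lower at 60 min and 10 higher, or 24.3% and 4.76%, beside 2.64% and 4.82% of all rows. The lowest were Zfp112 (-0.80), Zic5 (-0.75), Zfp111 (-0.71) and Zfp870 (-0.61). The highest were Zfp593 (1.67), Zfp503 (0.50), Zfp217 (0.46) and Zfp281 (0.34). Without 60 min replicate 1 the counts were 26 lower and 5 higher, and Zfp503 lost its call (0.45); without 5 min replicate 1, 18 were higher.

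The stretches around the starts of 6 of these genes are shown because they let a reader set the dipping Zic pair beside a Zic gene that did not dip, 2 dipping Zfp genes and the most raised member. They are RefSeq promoters of the GRCr8 build, each of 300 bases, 250 before and 50 after the annotated start, written 5′ to 3′ in the gene's direction, with matched motifs in capitals. Zic5 lies at chr15:105973620-105973919 on the minus strand, Zic2 at chr15:105983092-105983391 on the plus strand, Zic4 at chr8:100795852-100796151 on the plus strand, Zfp112 at chr1:88804583-88804882 on the plus strand, Zfp870 at chr7:12654271-12654570 on the minus strand and Zfp593 at chr5:151748675-151748974 on the minus strand.
Zic5: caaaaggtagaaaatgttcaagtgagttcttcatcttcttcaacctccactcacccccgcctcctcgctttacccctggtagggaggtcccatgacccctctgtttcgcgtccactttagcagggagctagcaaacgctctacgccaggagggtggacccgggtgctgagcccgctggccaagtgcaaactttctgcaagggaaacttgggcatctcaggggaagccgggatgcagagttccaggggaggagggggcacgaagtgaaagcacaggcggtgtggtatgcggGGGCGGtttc
Zic2: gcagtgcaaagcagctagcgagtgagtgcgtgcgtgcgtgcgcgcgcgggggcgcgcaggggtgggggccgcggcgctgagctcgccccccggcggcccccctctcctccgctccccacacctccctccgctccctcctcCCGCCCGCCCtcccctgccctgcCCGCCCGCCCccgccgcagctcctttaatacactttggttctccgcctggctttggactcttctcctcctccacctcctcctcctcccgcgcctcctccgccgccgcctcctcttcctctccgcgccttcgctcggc
Zic4: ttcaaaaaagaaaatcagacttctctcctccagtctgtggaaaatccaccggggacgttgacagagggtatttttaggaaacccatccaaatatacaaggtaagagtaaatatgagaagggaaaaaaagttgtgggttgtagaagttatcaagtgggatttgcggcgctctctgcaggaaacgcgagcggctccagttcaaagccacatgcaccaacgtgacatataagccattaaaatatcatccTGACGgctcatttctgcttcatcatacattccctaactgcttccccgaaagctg
Zfp112: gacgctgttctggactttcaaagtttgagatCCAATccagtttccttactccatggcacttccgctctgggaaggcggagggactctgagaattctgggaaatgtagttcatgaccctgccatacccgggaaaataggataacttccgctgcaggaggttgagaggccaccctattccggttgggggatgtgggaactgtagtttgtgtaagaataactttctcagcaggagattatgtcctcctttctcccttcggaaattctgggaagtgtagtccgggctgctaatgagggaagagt
Zfp870: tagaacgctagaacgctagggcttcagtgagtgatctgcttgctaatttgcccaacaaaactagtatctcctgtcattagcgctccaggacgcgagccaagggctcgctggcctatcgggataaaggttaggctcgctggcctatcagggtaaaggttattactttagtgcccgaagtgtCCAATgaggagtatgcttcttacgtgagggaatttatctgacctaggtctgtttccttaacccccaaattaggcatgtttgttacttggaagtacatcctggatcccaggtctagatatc
Zfp593: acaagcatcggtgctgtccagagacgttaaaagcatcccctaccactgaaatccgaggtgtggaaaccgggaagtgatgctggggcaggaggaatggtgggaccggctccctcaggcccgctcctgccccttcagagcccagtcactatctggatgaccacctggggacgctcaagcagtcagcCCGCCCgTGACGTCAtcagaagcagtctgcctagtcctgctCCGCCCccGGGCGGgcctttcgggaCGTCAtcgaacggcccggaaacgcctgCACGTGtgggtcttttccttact

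Motif letters were searched on both strands. They were the GC box GGGCGG, the CCAAT box, the TATA box with the letters TATAAA, the E-box CACGTG, the AP-1 element TGANTCA, and the cAMP response element TGACGTCA with its shorter form TGACG, which lies inside the longer one. The Zfp593 promoter held TGACGTCA at 59 bases before the start, TGACG again on the other strand at the start, 3 GC boxes and an E-box at 28 bases after the start. Of all RefSeq promoters 1.83% held the longer cAMP response letters, 21.2% the shorter ones and 6.42% the E-box. The TATA box was in none of the 6, and in 8.72% of member and 14.2% of all promoters. The Zic2 promoter, 74.3% G or C, held 4 GC boxes between 110 and 83 bases before the start in 2 overlapping pairs, and Zic5 held 1 at 41 bases after its start. Zic4 held TGACG at 4 bases before the start. Zfp112 and Zfp870 held CCAAT, at 219 and 70 bases before the start. A match describes letters and not a bound site.

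A promoter was in the table for 172 members, 40 of them among the 49 called lower at 60 min. The GC box was in 48.8% of member promoters, 40% of those of the dipping members and 51.5% of those of the other members, against 41.8% of the RefSeq promoters of protein-coding genes and 33.1% of all RefSeq promoters. The CCAAT box was in 40% of the dipping and 34.8% of the other members, and in 38% of protein-coding promoters. TGACG was in 25% and 31.1%, against 23.5%, and AP-1 letters in 0% and 6.06%, against 6.53%. Median G and C content was 55.8% in the dipping and 59.5% in the other members, against 55%.

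At 120 min against mock, which asks what the cultures held later and shares the mock libraries with the dip, members had moved both ways. Limma called 48 higher and 44 lower, or 22.9% and 21%, beside 20.4% and 16.9% of all rows, so the member shares lay near the background. The median difference was -0.01. Scaled by library totals alone, the split was 39 higher and 60 lower. Without 120 min replicate 2 the lower count was 29, and without either 120 min library the higher count was 32.

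The largest rise at 120 min was again Zfp593 (log2 difference 1.77, SE 0.07, adjusted p = 3.9e-09), followed by Zfp217 (log2 difference 1.05, SE 0.06, adjusted p = 1.6e-07). Zbtb42 was at 1.61 and 1.48 CPM in mock, 1.67 and 1.97 at 5 min, 1.74 and 2.1 at 10 min, 2.44 and 2.24 at 60 min, and 4.26 and 3.65 at 120 min, with the 120 min libraries above all others (log2 difference 0.96, SE 0.11, adjusted p = 5.4e-05). Zbtb10, a repressor of Sp-family genes in human cells, was at 13.6 and 12.8 CPM in mock, 13.1 and 11.7 at 5 min, 13.1 and 11.7 at 10 min, 14.4 and 16.3 at 60 min, and 26.2 and 26.2 at 120 min. Its 120 min libraries lay above all others, and both 60 min libraries were also above both mock libraries (log2 difference 0.94, SE 0.08, adjusted p = 4.9e-06).

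Zfp281 (0.76), Zbtb7a (0.69), known as a repressor of fetal globin in humans, Zbtb7b (0.68), which directs T cells to the helper lineage in mice, and Zfp655 (0.66) rose as well, with adjusted p from 1.1e-06 to 1.4e-05 in limma. Zfp655 was at 91.9 ± 2.9 CPM in mock and 146 ± 1.6 CPM at 120 min (SD, n = 2). Zbtb7b was at 17.2 and 15.3 CPM in mock, 16.7 and 16.8 at 5 min, 15.4 and 14.8 at 10 min, 12.9 and 12.5 at 60 min, and 27 and 26.3 at 120 min. It was close to mock through 10 min, below mock at 60 min and far above at 120 min.

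The largest fall at 120 min was that of Zfp167, listed as Zkscan7 in RefSeq. It was at 13.2 and 11.6 CPM in mock, 12.3 and 11.1 at 5 min, 13.5 and 12.9 at 10 min, 8.88 and 10.2 at 60 min, and 7.92 and 7.18 at 120 min. Both late groups lay below mock, the 120 min libraries farthest (log2 difference -0.65, SE 0.09, adjusted p = 0.00023). Zfp532 fell from 78.1 ± 3.4 to 50.4 ± 0.18 CPM (SD, n = 2; log2 difference -0.62, SE 0.06, adjusted p = 5.9e-06). Zbtb16, a repressor needed by germline stem cells in mice, was at 24.9 and 23.7 CPM in mock, 22.7 and 24.4 at 5 min, 23.3 and 18.7 at 10 min, 28 and 22.8 at 60 min, and 15.9 and 15.6 at 120 min, with only the 120 min libraries below every other (log2 difference -0.60, SE 0.11, adjusted p = 0.001).

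Zfp879 (-0.57), Zfp483 (-0.53), Zfp52 (-0.49), Zfp426 (-0.48) and Zbtb25 (-0.47) were also called lower, with adjusted p from 0.00011 to 0.021. Zfp52, at 2.79 to 5.34 CPM, lost its call without mock replicate 1 or 120 min replicate 2 (adjusted p from 0.13 to 0.19). Among Zbtb genes Zbtb5 (log2 difference -0.42, SE 0.06, adjusted p = 0.00013) and Zbtb40 (log2 difference -0.41, SE 0.13, adjusted p = 0.025) fell as well, and Zbtb40 lost its call without mock replicate 1, 120 min replicate 1 or 120 min replicate 2 (adjusted p from 0.09 to 0.18).

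The members of highest mean CPM were Zfp91, a ubiquitin ligase in human cells, Zfp638 and Zfp238, the cortical repressor that RefSeq lists as Zbtb18. Per kb of that width in the deposited table, Zfp238 stood at 110.5 CPM in mock, Zfp91 at 54.1 and Zfp638 at 28.7. The median Zfp gene was at 7.22 and the median Zbtb gene at 5.44. Zfp238 went from 173 ± 3.5 to 134 ± 0.52 CPM at 120 min (SD, n = 2) and was called lower (log2 difference -0.37, SE 0.04, adjusted p = 3e-05). Zfp638 was lower as well (log2 difference -0.22, SE 0.04, adjusted p = 0.0022), while Zfp91 was not called (log2 difference -0.08, SE 0.04, adjusted p = 0.088). Among the members of lowest mean CPM, Zfp575 and Zfp498 (Zscan25 in RefSeq) had no call at either late time.

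From 60 to 120 min the dip was largely undone. Between these groups 88 members were called higher and 22 lower, or 41.9% and 10.5%, where 19.8% and 16% of all rows were. Of the 49 members lower at 60 min, 38 were higher at 120 than at 60 min, 1 (Zfp167) was lower and 10 were not called. Their median regained 86.4% of the fall on the log2 scale. Over the 227 rows of the whole table called lower at 60 min, which include the 49 members, 133 (58.6%) were higher from 60 to 120 min. Their median regained 74.7%. Both sets were chosen as low in the 60 min libraries, so part of the share regained may follow from that choice. The count of members lower from 60 to 120 min was 13 without either 120 min library and 14 without 60 min replicate 2.

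Set against mock at 120 min, the 49 members parted 3 ways: 24 were not called, 13 were still lower and 12 were higher. Over all 227 rows lower at 60 min, 37.4% were still lower and 21.1% higher. The members lower at both times include Zfp112 (57.3% regained), Zfp949 (37.4%), Zfp799 (41.8%), Zbtb5 (20.3%) and Zfp467 (31.1%). Zfp112 lost its call at 120 min without mock replicate 1, mock replicate 2 or 120 min replicate 1 (adjusted p from 0.07 to 0.19), and Zfp467 without mock replicate 1 or 120 min replicate 2 (adjusted p from 0.061 to 0.08). Those not called against mock at 120 min include Zfp111 (84.6%), Zfp870 (93.8%), Zfp161 (122%) and Zfp641 (136%) (adjusted p = 0.31, 0.64, 0.2 and 0.074 in limma).

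The 12 that crossed from below to above mock were Zic2, Zic5, Zbed4, Zbtb7b, Zbtb9, Zbtb39, Zfp84, Zfp105, Zfp592, Zfp629, Zfp672 and Zfp746. Zbed4, another transposase-derived protein, was at 18.6 and 18.8 CPM in mock, 18.5 and 16.4 at 5 min, 18.7 and 17.9 at 10 min, 14.5 and 14.3 at 60 min, and 29.5 and 30.2 at 120 min. Its 60 min libraries lay below and its 120 min libraries far above all others (log2 difference 0.65, SE 0.07, adjusted p = 1.6e-05 at 120 min against mock). Zfp672 was at 23.1 and 25.4 CPM in mock, 25.2 and 24.4 at 5 min, 24.6 and 24.6 at 10 min, 16.5 and 16.1 at 60 min, and 34.4 and 33.7 at 120 min, with the same shape (log2 difference 0.48, SE 0.06, adjusted p = 8.8e-05). Zfp592 (log2 difference 0.45, SE 0.05, adjusted p = 5.5e-05) and Zfp746, a target of the ubiquitin ligase parkin (log2 difference 0.22, SE 0.05, adjusted p = 0.0041), also stood above mock at 120 min.

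Several of the crossings were small at 120 min. Zic5 (log2 difference 0.37, SE 0.10, adjusted p = 0.014) lost its 120 min call without mock replicate 1, mock replicate 2 or 120 min replicate 1 (adjusted p from 0.056 to 0.11), and Zic2 (log2 difference 0.33, SE 0.09, adjusted p = 0.015) without mock replicate 1, mock replicate 2 or 120 min replicate 1 (adjusted p from 0.061 to 0.15). Zbtb39 lost it without mock replicate 1, 120 min replicate 1 or 120 min replicate 2 (adjusted p from 0.052 to 0.085), Zfp105 without mock replicate 1, 120 min replicate 1 or 120 min replicate 2 (adjusted p from 0.082 to 0.14) and Zfp629 without mock replicate 2, 120 min replicate 1 or 120 min replicate 2 (adjusted p from 0.064 to 0.1). Zbtb9 lost it without mock replicate 1, mock replicate 2, 120 min replicate 1 or 120 min replicate 2 (adjusted p from 0.055 to 0.13), and Zfp84 without mock replicate 1, mock replicate 2 or 120 min replicate 2 (adjusted p from 0.12 to 0.25). For Zic2, Zbtb9, Zfp105 and Zfp84 it was also lost under scaling by library totals alone. At 60 min the call was lost for Zbtb7b without mock replicate 1, 60 min replicate 1 or 60 min replicate 2 (-0.35 to -0.25), for Zfp105 without mock replicate 2 (-0.36) and for Zfp746 without mock replicate 2, 60 min replicate 1 or 60 min replicate 2 (-0.24 to -0.21). Zfp629 lost it without mock replicate 1, mock replicate 2, 60 min replicate 1 or 60 min replicate 2 (-0.33 to -0.26). Zbtb9 lost it without any 1 of 8 libraries, all but the 5 min pair.

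Zfp608 took the opposite course, at 53 and 50.8 CPM in mock, 49 and 48.7 at 5 min, 57 and 50.6 at 10 min, 65.3 and 58.9 at 60 min, and 42.5 and 43.3 at 120 min. The 60 min libraries were the highest and the 120 min libraries the lowest, though its call was lost at 60 min without mock replicate 1, mock replicate 2, 60 min replicate 1, 120 min replicate 1 or 120 min replicate 2 (0.18 to 0.28) or under scaling by library totals alone (0.22), and at 120 min without mock replicate 1 (adjusted p = 0.052). It and Zbtb16 (-0.65), Zfp532 (-0.50), Zfp238 (-0.39), Zfp523 (-0.37), Zfp503 (-0.35), Zfp609 (-0.33) and Zfp846 (-0.31) had the largest differences downward from 60 to 120 min. Upward, Zic5 (1.24), Zfp672 (1.02), Zfp641 (1.02), Zbtb7b (1.01), Zbed4 (1.00), Zic2 (0.90), Zfp592 (0.80) and Zfp455 (0.77) had the largest. Zfp503 lost this call without 60 min replicate 1 or 120 min replicate 2 (-0.30 to -0.27).

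**Figure D3:**
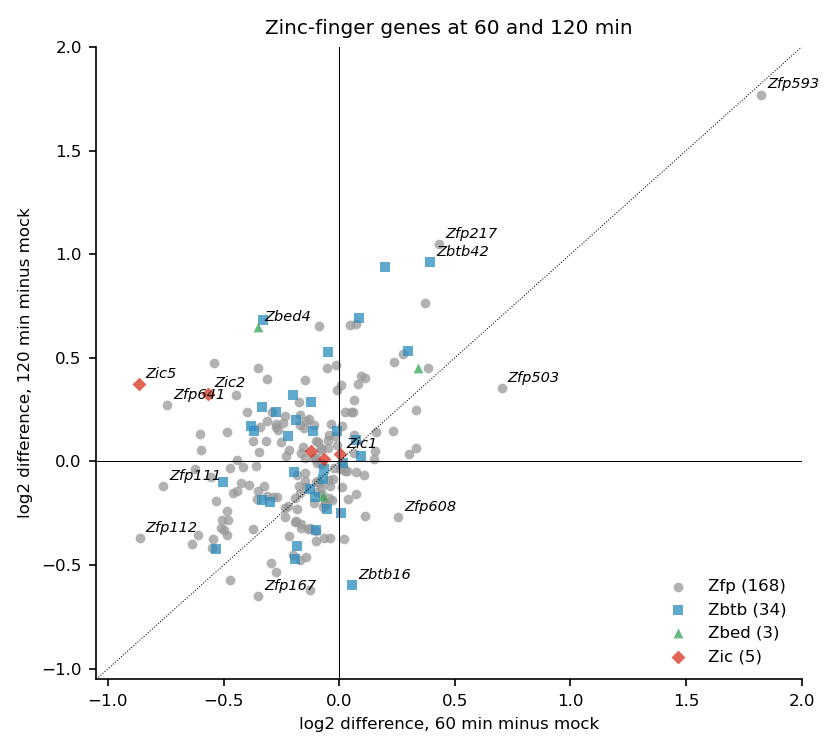
Log2 difference from mock at 60 min (horizontal) and at 120 min (vertical) for the 210 members, with shape and colour by subfamily; the dotted line marks equal differences, and both axes share the mock libraries. Zic5 and Zic2 sit in the upper left, low at 60 and high at 120 min, and Zfp593 sits at the upper right end of the dotted line.

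Before 60 min the 49 dipping members lay nearer mock. Their median was -0.02 and -0.14 from the mock mean in the 5 min libraries, -0.01 and -0.07 at 10 min, -0.47 and -0.44 at 60 min, and -0.06 and -0.04 at 120 min. The second library of the 5 and of the 10 min group was the lower of its pair. Both 5 min libraries were below both mock libraries in 21 of the 49, and both 10 min libraries in 16. Of all members 35.7% and 22.4% were, and of all rows 23.3% and 21.4%. The 49 were selected as lower than the same mock libraries, which favours values below mock at the other times too. A further 30 members were called lower and 26 higher at 120 min without a call at 60 min, and 93 were called at neither time. These classes were not counted over all rows. Whatever the 60 min call, 21% of the members were lower and 22.9% higher at 120 min, near the 16.9% and 20.4% of all rows. Of the 30, both 60 min libraries lay below both mock libraries in 24, beside 61.9% of all members and 25.8% of all rows. These 30 were selected as lower than the same mock libraries, which favours values below mock at 60 min.

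**Figure D4:**
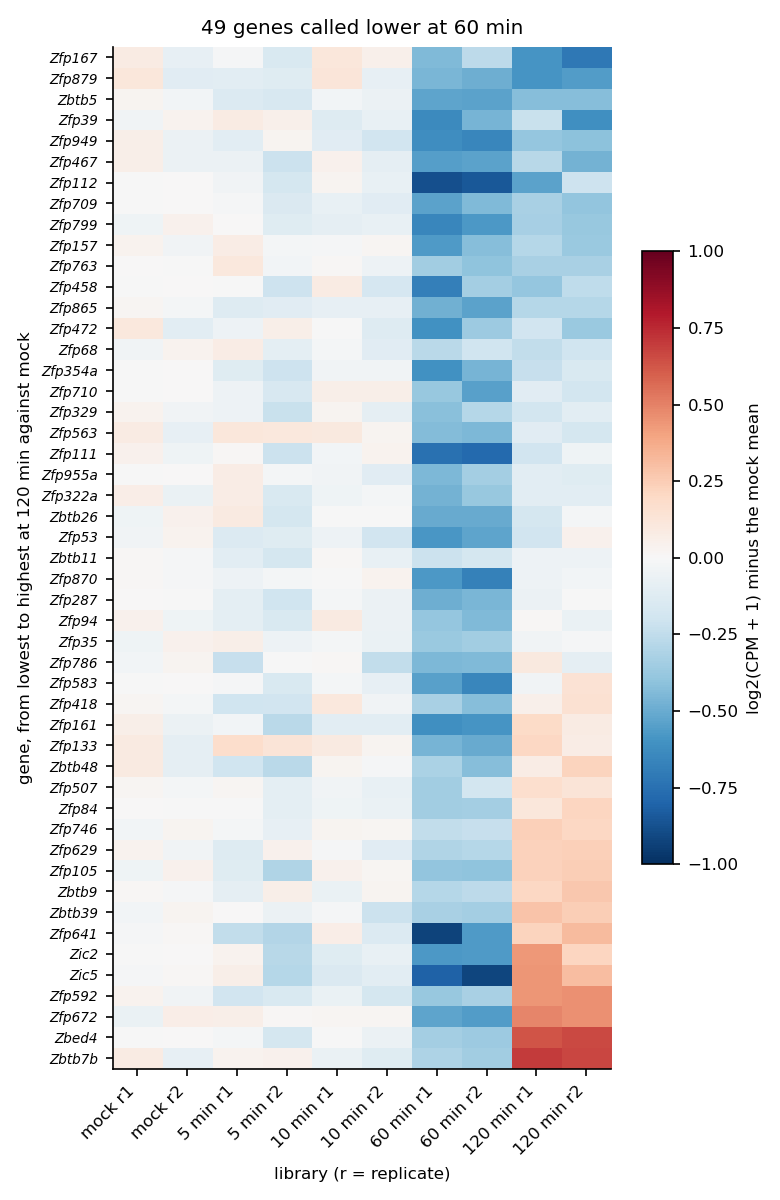
Log2(CPM + 1) minus the mock mean in the 10 libraries for the 49 members called lower at 60 min, ordered from the lowest to the highest difference at 120 min against mock; blue is below and red above mock, and the selection fixes the colour at 60 min. In the last 2 columns 18 of the 49 lie above the mock mean in both 120 min libraries, 27 below it in both and 4 on either side.

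The dip was spread over the subfamilies, and no test of a difference between them was made. Subfamilies follow the symbols of the deposited table and not protein domains. Some genes that RefSeq lists as Zbtb, such as Zfp161 (Zbtb14) and Zfp238 (Zbtb18), therefore count as Zfp. At 60 min 39 of 168 Zfp genes (23.2%) were called lower and 10 higher, 7 of 34 Zbtb genes (20.6%) lower and 1 higher, 2 of 5 Zic genes lower and none higher, and 1 of 3 Zbed genes each way. Of all rows 1.95% were lower and 4.64% higher. Median differences were -0.14 for Zfp and -0.12 for Zbtb. At 120 min 37 Zfp genes (22%) were lower and 33 (19.6%) higher. Of the Zbtb genes 7 (20.6%) were lower and 11 (32.4%) higher, and of all rows 16.9% and 20.4%. The medians were -0.03 for Zfp and 0.07 for Zbtb, and both Zic genes and both Zbed genes that were called were higher. From 60 to 120 min 29 of the 39 dipping Zfp genes, 6 of the 7 Zbtb genes, both Zic genes and Zbed4 were called higher. Of all rows called lower at 60 min 58.6% were. Zbed3 was called at no time, at 20.7 ± 0.9 CPM in mock and 18.4 ± 0.51 at 120 min (SD, n = 2; adjusted p = 0.053 in limma).

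Many members lie in tandem, and clusters were read from the chromosome and start columns (rn6) as 3 or more members with no gap over 500 kb between neighbouring starts. There were 13 clusters holding 54 members. At 60 min 23 of these 54 (42.6%) were called lower, against 26 of the 156 members outside clusters (16.7%), and the medians were -0.26 and -0.09. With a gap limit of 250 kb the shares were 41.7% and 17.9%, and with 1000 kb 35.1% and 16.9%. Tandem members resemble each other in sequence, and no source used here says how reads matching several genes were counted, so values of such neighbours may share reads.

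The cluster on chromosome 7 between positions 15066960 and 15789348 was the most uniform. All 6 of its members were called lower at 60 min: Zfp870 (-0.62), Zfp799 (-0.61), Zfp472 (-0.48), Zfp563 (-0.44), Zfp955a (-0.39) and Zfp763 (-0.37). At 120 min Zfp799 (log2 difference -0.36, SE 0.07, adjusted p = 0.0013) and Zfp763 (log2 difference -0.32, SE 0.06, adjusted p = 0.0014) were still lower and 4 were higher than at 60 min. The 3 other genes of the table inside this span were not called at 60 min, with a median of 0.05. Zfp472 lost its 60 min call without mock replicate 1 or 60 min replicate 1 (-0.38 to -0.36), and of the 4, Zfp563 lost the call from 60 to 120 min without 120 min replicate 1 (0.27) and Zfp799 without 60 min replicate 1 or 120 min replicate 1 (0.21 to 0.23). This cluster was picked for its uniform dip after its values were seen.

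The cluster with the most members, 8 on chromosome 4 between 77497158 and 78258545, was mixed. Zfp467 (-0.55), Zfp786 (-0.44) and Zfp746 (-0.24) were called lower at 60 min, while Zfp398 (-0.28), Zfp282 (-0.25), Zfp777 (-0.24), Zfp775 (-0.17) and Zfp956 (0.06) were not. At 120 min Zfp746 and Zfp777 (log2 difference 0.18, SE 0.07, adjusted p = 0.047) were higher and Zfp467 and Zfp775 (log2 difference -0.32, SE 0.08, adjusted p = 0.0099) lower, within 1 Mb. Zfp777 lost its call without mock replicate 1, mock replicate 2, 60 min replicate 1, 60 min replicate 2, 120 min replicate 1 or 120 min replicate 2 (adjusted p from 0.055 to 0.24) and under scaling by library totals alone (0.12, adjusted p = 0.16). Zfp775 lost its call without mock replicate 1 or 120 min replicate 2 (adjusted p from 0.069 to 0.1). At 60 min Zfp786 lost its call without mock replicate 1, mock replicate 2, 60 min replicate 1 or 60 min replicate 2 (-0.47 to -0.42). The 5 other genes within the span gave 0 calls at 60 min.

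In the 7-member cluster of chromosome 1 between 80920745 and 81450094, Zfp112, Zfp111 and Zfp94 were called lower at 60 min and Zfp180, Zfp61, Zfp428 and Zfp575 were not. Zfp94 (-0.42) lost its call without mock replicate 1 (-0.38). Zfp575 was at 0.681 to 1.68 CPM over the libraries. The 7 other genes within that span gave 0 lower calls and 1 higher call at 60 min. Another cluster of chromosome 1, between 71244270 and 71447195, held genes called both ways at 60 min, Zfp583 lower (-0.60) and Zfp787 and Zfp444 higher. A cluster of 4 on chromosome 8, between 21445611 and 21618389, had 0 calls at 60 min and 3 lower at 120 min, namely Zfp426 (log2 difference -0.48, SE 0.06, adjusted p = 0.00011), Zfp846 (log2 difference -0.46, SE 0.06, adjusted p = 0.00016) and Zfp266 (log2 difference -0.32, SE 0.07, adjusted p = 0.0033). The remaining gene, Zfp26, was not called at 120 min (0.20, adjusted p = 0.11 in limma).

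**Figure D5:**
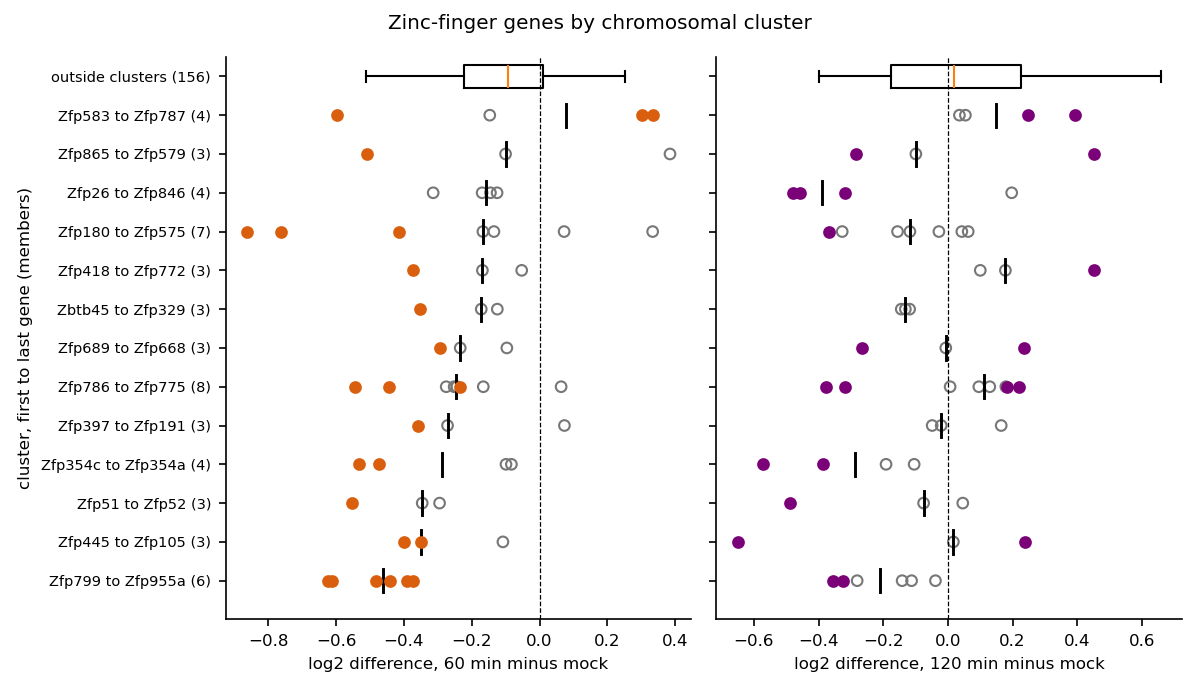
Log2 difference from mock at 60 min (left) and 120 min (right) for the members of the 13 chromosomal clusters, named by their first and last gene with the member count; filled points are called, open points are not, and black ticks mark medians. Boxes show the 156 members outside clusters (quartiles, whiskers at the 5th and 95th percentiles). All 6 points of the cluster Zfp799 to Zfp955a are filled at 60 min.

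The dip was less frequent among members with more reads and among those of small width in the deposited table. Split into 3 groups of 70 by mean CPM, 28.6% of the members with up to 14.2 CPM were called lower at 60 min, 25.7% of the middle group and 15.7% of those over 32.1 CPM, where the same CPM ranges over all rows gave 2.2%, 2.96% and 1.46%. CPM stands here for reads behind a value and not for transcripts. By this width, which is not the span of the gene on the chromosome, 15.7% were lower among the 70 members up to 2397 bases. In each of the wider groups 27.1% were, against 0.987%, 2.69% and 3.34% of all rows. Over the 210 members the Spearman correlation of the 60 min difference with mean CPM was 0.22 and with width -0.17. These genes share the libraries, so the correlations are given as descriptions. The part of level and width in the dip was not tested.

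Summed markers of other cells differed between the groups too, some of them before 60 min. No listed marker was called at 5 or 10 min. Summed fibroblast and vascular markers (5 of 8 listed) were at 1188 to 1294 CPM in mock, 1104 to 1125 at 10 min, 945 to 996 at 60 min and 964 to 1023 at 120 min. Of these 5, 2 were called lower at 60 min and 2 at 120 min. Microglial markers (5 of 5) were at 171 to 174 CPM in mock, 154 to 155 at 5 min, 131 to 146 at 10 min, 144 to 153 at 60 min and 121 to 128 at 120 min. Of these 5, 1 was called lower at 60 min and all 5 at 120 min. Excitatory neuron markers (6 of 6) were at 2112.1 to 2189.8 CPM at 60 min and 1777 to 1822 at 120 min, with 0 and 4 called lower and 1 called higher at 60 min. Astrocyte markers (6 of 6) were at 18168 to 18178 CPM at 60 min and 18412 to 19290.0 at 120 min, with 2 called higher at 120 min. The other 4 lay below mock at 120 min, and the median log2 difference of the 6 was -0.02. Oligodendrocyte lineage markers (5 of 5) were at 1339.6 to 1403 CPM in mock, 1384 to 1426 at 60 min with 2 called higher, and 1210.3 to 1257 at 120 min with 1 called lower. Inhibitory neuron markers (3 of 3) were at 811 to 822 CPM in mock, 814 to 845 at 60 min with 1 called higher, and 705 to 726 at 120 min with 2 called lower. Cycling markers (3 of 3) were at 52.9 to 58.3 CPM in mock, 47.3 to 51.3 at 60 min and 45.8 to 52.3 at 120 min, with 1 called lower at 120 min. Cerebellar granule markers (3 of 5), of interest beside the Zic genes, were at 23.1 to 25.6 CPM in mock, 28.4 to 28.9 at 60 min with 1 called higher, and 22.3 to 22.6 at 120 min. At 60 min the other 2 lay below mock, and the median log2 difference of the 3 was -0.04. No listed marker that has a row was at 0, and the part of these shifts in the zinc-finger values was not tested.

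The partners of the family are given beside the all-row shares of 4.64% higher and 1.95% lower at 60 min and 20.4% and 16.9% at 120 min. Of 24 genes listed for KRAB silencing 18 were measured, the member Zfp91 among them, and 0 were called at 60 min (0 with an unadjusted p under 0.05, smallest adjusted p 0.3 in limma, median -0.04). Of the 18, 14 (77.8%) lay below 0 at 60 min, beside 75.7% of the members and 52.9% of all rows. At 120 min 4 were higher and 2 lower, 22.2% and 11.1%. The heterochromatin protein gene Cbx5 (log2 difference -0.25, SE 0.05, adjusted p = 0.0029) and the maintenance DNA methyltransferase gene Dnmt1 (log2 difference -0.27, SE 0.06, adjusted p = 0.004) fell. The chromatin ATPase gene Morc3 (log2 difference 0.31, SE 0.08, adjusted p = 0.0084) and the deacetylase gene Hdac1 (log2 difference 0.17, SE 0.05, adjusted p = 0.021) rose. Morc3 lost its call without mock replicate 2 or 120 min replicate 1 (adjusted p from 0.053 to 0.082), and Hdac1 without mock replicate 1, mock replicate 2, 120 min replicate 1 or 120 min replicate 2 (adjusted p from 0.051 to 0.14) and under scaling by library totals alone (0.11, adjusted p = 0.1).

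All 16 listed corepressors and partners of BTB proteins were measured, and 10 (62.5%) lay below 0 at 60 min. At 60 min 2 were called higher, Bcl6, itself a BTB zinc-finger repressor (34.2 ± 0.89 CPM in mock, 44.9 ± 0.23 at 60 min and 35.1 ± 0.77 at 120 min; SD, n = 2), and its corepressor Bcor (log2 difference 0.30), which lost that call without mock replicate 1, mock replicate 2, 60 min replicate 1 or 60 min replicate 2 (0.26 to 0.34). At 120 min 3 were higher and 2 lower, among them Bcor (log2 difference 0.45, SE 0.06, adjusted p = 0.00024), Kctd1 (log2 difference 0.35, SE 0.06, adjusted p = 0.00096) and Patz1 (log2 difference -0.34, SE 0.06, adjusted p = 0.0015). Of 15 GLI and Hedgehog genes, the relatives of Zic factors and their pathway, 8 were measured and 0 were called at 60 min (smallest adjusted p 0.3 in limma). All 8 lay below 0 at 60 min (median -0.10), beside 52.9% of all rows. At 120 min 2 of the 8 were higher and 3 lower. Gli2 went from 6.4 ± 0.55 to 13.1 ± 0.88 CPM (SD, n = 2; log2 difference 0.93, SE 0.09, adjusted p = 1.3e-05). Glis2 was the other one called higher (log2 difference 0.31, SE 0.08, adjusted p = 0.011). Gli3 (log2 difference -0.41, SE 0.06, adjusted p = 0.00037), the receptor gene Ptch1 (log2 difference -0.46, SE 0.08, adjusted p = 0.00073) and the coreceptor gene Cdon (log2 difference -0.42, SE 0.08, adjusted p = 0.0019) fell.

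Other finger genes are set beside the members for scale. Of 12 rows with other C2H2 symbols 1, Zkscan3 (log2 difference -0.23), was called lower at 60 min, a call lost without mock replicate 1, mock replicate 2, 10 min replicate 1, 10 min replicate 2, 60 min replicate 1, 120 min replicate 1 or 120 min replicate 2 (-0.27 to -0.17), and the median was -0.13. At 120 min 3 of the 12 were lower, Zfhx4 among them (log2 difference -0.58, SE 0.10, adjusted p = 0.00096), and 2 higher, among them Zeb2 (log2 difference 0.28, SE 0.06, adjusted p = 0.0036). Of 49 rows for other finger types 0 were lower and 2 higher at 60 min (median -0.04), the latter being the ribonuclease gene Zc3h12a (log2 difference 2.03) and Zdhhc18, which lost that call without mock replicate 1, mock replicate 2, 60 min replicate 1 or 60 min replicate 2 (0.26 to 0.31). Zhx2, a homeobox and finger repressor, went from 60.1 ± 0.13 CPM in mock to 139 ± 8.7 CPM at 120 min (SD, n = 2; log2 difference 1.20, SE 0.05, adjusted p = 6.5e-09), while Zhx1 and Zhx3 fell (-0.22 and -0.44, adjusted p = 0.0027 and 2e-05).

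The authors' deposited table, at its own adjusted p under 0.05, lists 62 members lower and 15 higher at 60 min, 29.5% and 7.14%, beside 3.33% and 5.9% of all rows in the authors' deposited table. At 120 min the authors' deposited table lists 52 lower and 58 higher, 24.8% and 27.6%, beside 18.8% and 22.8% of all rows. The 2 members listed lower at 5 min (0.952%, all rows 0.809%) and the 1 listed higher at 10 min (0.476%, all rows 0.577%) in the authors' deposited table are near its background. All 61 member calls of limma at 60 min and all 92 at 120 min are also in the authors' deposited table with the same direction.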

How the data were processed

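Poly(A) RNA of 10 cultures was read as 1 table. CPM values, 1 column per library, were deposited by the authors, as were their log2 fold changes and adjusted p-values for each time against mock, per the file headers. TopHat2 2.1.0, HTSeq, edgeR and rn6 are named per the submitters' processing notes; neither strand setting nor treatment of reads matching several genes is stated there. All values were whole multiples of 1 read within 0.01 reads, and the lowest value in each library stood for 9 to 20 reads, so rows had passed a filter. A repeat of the mock columns (6 columns) was not used, and 22 symbols held serial numbers in place of names.

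TMM factors (trims of 30% and 5%) were 0.970 to 1.02. Differences were taken on log2(CPM + 1) and tested with limma 3.58.1 in R 4.3.3 (intensity trend, 1 mean per group, 5 residual degrees of freedom, two-sided, Benjamini-Hochberg over 11615 rows), checked on simulated data, where 94% to 100% of genes changed by 0.5 and 100% of those changed by 1 on the log2 scale were recovered at 60 and 120 min, with 19 false calls at 60 min and 4 at 120 min among the 11615 genes. In the simulation genes of like level shared a like spread and 50 genes changed at each size, so recovery in these data may be lower. The labels call the libraries biological repeats. Separate animals are not stated, so p-values measure the spread between these samples.

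The members and all gene lists were chosen with earlier results of these data known. Members are named as the 8 largest falls and rises called in each late comparison (4 against pooled early times), the 4 smallest p at 5 and 10 min, Zic and Zbed genes, the 4 leading Zbtb genes each way, the 3 highest and lowest mean CPM, the largest cluster and members called in opposite directions; up to 4 called genes are named per partner list. A member that this rule names is not reported here. Promoters are from RefSeq (GRCr8): 209 of 210 members matched, 8 by synonym, and 172 had a promoter. Of the members 8 overlap another gene of the table, 2 on the same strand (Zfp207 and Zfp951) and the others, Zfp142, Zfp219 and Zfp57 among them, on the opposite strand; with the strand setting unknown, their reads cannot be told apart. Figures were drawn with matplotlib 3.10.9.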

Additional observations from a re-analysis of the deposited data

Results flagged for a closer look

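The difference between the 60 and 120 min groups was marked because the late groups stood apart from each other under the same contrast with mock: 88 members were called higher and 22 lower at 120 than at 60 min in limma. The family was chosen on its 60 min values, so these calls and those below are descriptions and no independent test.

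A set of 13 members was marked because they were called in opposite directions against mock at the 2 late times, with the difference between 120 and 60 min itself called in limma. On the log2 scale that difference was 1.24 for Zic5, 1.02 for Zfp672, 1.01 for Zbtb7b, 1 for Zbed4 and 0.9 for Zic2. It was 0.8 for Zfp592, 0.64 for Zfp105, 0.6 for Zbtb39, 0.53 for Zfp629, 0.51 for Zbtb9, 0.51 for Zfp84 and 0.46 for Zfp746. Zfp608 alone went the other way, at -0.52.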

How the results depend on the processing

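Direction held in all 248 gene results under every alternative run: library totals, median-of-ratios factors, limma-voom, pseudocounts of 0.1 and 2 CPM, a minimum mean of 2 CPM, fewer groups in the fit, a replicate block, and each library left out. These results were picked as calls or smallest p in the same libraries, which favours a held direction. In 87 of them the call was lost under at least 1, and 3 gained a call, Zfp142, Zfp512b and Zfp513 at 5 min. With library totals 7 members were called higher and 59 lower at 60 min. Leaving out 1 library gave 4 to 12 members higher and 31 to 57 lower at 60 min, 32 to 52 higher and 29 to 52 lower at 120 min, and 67 to 90 higher and 13 to 24 lower from 60 to 120 min. Against the pooled early libraries it gave 5 to 18 higher and 26 to 54 lower, and at 5 min 0 to 19 lower. At an adjusted p under 0.01 in place of 0.05, 3 members in place of 12 were both lower at 60 and higher at 120 min. The cause was not tested, and a lone library left in a group is taken to vary like the others. Replicate numbers did not pair the libraries (correlations of deviations from -0.164 to 0.273); with a replicate block 50 members were lower and 9 higher at 60 min, and 44 and 48 at 120 min. The block ended the calls of Zfp167 and Zfp444 at 60 min, Zfp777 at 120 min (adjusted p = 0.056 in limma) and Zfp266 from 60 to 120 min. A planned count-model test on the reads behind the CPM values was not run (limma-voom used them), and neither was the division by KRAB box, since no protein sequences were used here. With 2 libraries a group, small differences of low genes are not detectable at this depth.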
